A study of Mus musculus with 7 samples.

Results

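The let-7 family was examined in extracellular vesicles, small membrane particles shed by cells, which were isolated from the adipose tissue of mice (C57BL/6J, male) on chow or a high-fat diet (HFD). The members were the 5p arms of let-7a, let-7b, let-7c, let-7d, let-7e, let-7f, let-7g, let-7i and of miR-98, taken by name, and all 9 were found among the 1084 entries of the count table. The series holds 4 Chow libraries and 3 HFD libraries, and its design text gives 12 weeks for both groups without saying whether that is the time on the diet or the age. Every mouse was of the same strain and sex, no transgene or drug is named, and the fat depot and the number of mice behind a library are not given in the labels. Whether each library is a separate animal is not stated, so the p-values reflect library-to-library spread that may be technical.

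The let-7 miRNAs are among the most conserved in animals. A miRNA is cut from a hairpin precursor, 1 strand (the guide) is loaded into an Argonaute protein, and bases near its 5′ end, the seed, pair with target messenger RNAs and reduce their output. Known let-7 targets include Lin28, Hmga2, Igf2bp family members and components of insulin signalling, and Lin28 proteins in turn block the maturation of let-7 precursors. In mice, raised let-7 is known to impair glucose tolerance, and let-7 is known to restrain fat cell differentiation in culture.

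The mature sequences are shown because the members are near-identical and share reads that differ by single bases. All 9 were matched by name to RefSeq (GRCm38.p6) and are written 5′ to 3′, with the seed (bases 2 to 8) in capitals.
mmu-let-7a-5p: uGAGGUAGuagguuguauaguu
mmu-let-7b-5p: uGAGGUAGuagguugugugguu
mmu-let-7c-5p: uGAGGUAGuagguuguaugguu
mmu-let-7d-5p: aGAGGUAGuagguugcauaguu
mmu-let-7e-5p: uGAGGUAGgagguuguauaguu
mmu-let-7f-5p: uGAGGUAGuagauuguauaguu
mmu-let-7g-5p: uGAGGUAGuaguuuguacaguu
mmu-let-7i-5p: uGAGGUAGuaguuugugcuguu
mmu-miR-98-5p: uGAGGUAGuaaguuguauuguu
All 9 had the same seed and the same length of 22 bases. Counted from 1 at the 5′ end and against let-7a-5p, let-7c-5p differed by A19G, let-7b-5p by A17G and A19G, let-7f-5p by G12A and let-7e-5p by U9G. The others differed by U1A and U16C (let-7d-5p), G12U and U18C (let-7g-5p), G11A and A19U (miR-98-5p), or G12U, A17G, U18C and A19U (let-7i-5p). Of the 36 pairs of members, 4 differed at a single base, namely let-7a-5p with let-7c-5p, let-7e-5p and let-7f-5p, and let-7b-5p with let-7c-5p. How the authors assigned reads that fit more than 1 member is not given in the sources used here, so the split of counts among these 5 members is uncertain.

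The members derive from 12 precursors on 7 chromosomes in RefSeq, all with the same span in GENCODE M21 (GRCm38). let-7a, let-7c and let-7f each have a pair of loci, and their counts cannot be split by locus. Mirlet7a-1 (chr13:48538179-48538272), Mirlet7f-1 (chr13:48537829-48537917) and Mirlet7d (chr13:48536012-48536114), all on the minus strand, lie within the noncoding gene 6720427I07Rik and overlap an exon of it. Mirlet7c-2 (chr15:85706603-85706697) and Mirlet7b (chr15:85707319-85707403) lie on the plus strand and overlap exons of the noncoding gene Lncppara. Mirlet7f-2 (chrX:151912346-151912428) and Mir98 (chrX:151913214-151913321) lie in an intron of Huwe1, a ubiquitin ligase gene, on the plus strand. Mirlet7g (chr9:106178840-106178927) lies in an intron of Wdr82 and Mirlet7e (chr17:17830352-17830444) in an intron of Spaca6. Mirlet7c-1 (chr16:77599657-77599750) lies in an intron of Mir99ahg, Mirlet7a-2 (chr9:41536716-41536811) in introns of the noncoding genes 3110039I08Rik and Gm49317, and Mirlet7i (chr10:122985640-122985724, minus strand) overlaps D630033A02Rik, annotated as a processed pseudogene. The hairpins of the pair of members with the lowest and the highest fold change are printed with the 5p arm in capitals.
Mirlet7b: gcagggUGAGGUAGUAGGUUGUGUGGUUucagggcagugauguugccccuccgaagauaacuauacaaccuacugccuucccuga
Mir98: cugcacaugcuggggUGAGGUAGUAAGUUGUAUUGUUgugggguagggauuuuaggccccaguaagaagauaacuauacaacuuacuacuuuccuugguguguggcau

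Library totals ranged from 48840 counts (Chow 3) and 180694 (Chow 2) to 5941955 (HFD 3), and the other 4 libraries held between 1825488 and 2294878. The shallow pair, Chow 2 and Chow 3, stood apart from the rest. The calls of both edgeR fits, the mean family share and the similarity ranking are also given without them, and the other results only with them, by library where they are shown. Every member had at least 1 count in every library. miR-148a-3p alone took 39.7% to 58.0% of each Chow library but 21.02% to 26.4% of each HFD library, so shares were also taken with it removed. Of 6 miRNAs listed as abundant in fat, none was at 0 in any library, and 1 (miR-148a-3p itself) fell in edgeR. The other miRNAs of that list summed to 7.90% to 13.1% of the counts without miR-148a-3p in Chow and 6.03% to 7.78% in HFD. Of all 385 tested miRNAs, edgeR called 2.08% higher and 0.779% lower in HFD. Of the 8 members of the leukocyte marker list, 4 rose and none fell. The summed share of that list without miR-148a-3p was 0.852% to 1.77% in Chow and 1.74% to 3.23% in HFD, so the diets overlapped. The endothelial list held 0.447% to 1.21% in Chow and 0.180% to 0.220% in HFD, with 1 of 3 members lower, and the stromal and smooth muscle list 2.01% to 4.65% and 0.493% to 0.693%, with 1 of 5 lower. The erythroid list held 0.421% to 0.695% in Chow and 0.105% to 0.358% in HFD, and none of its 5 members passed. No marker of these lists was at 0 in all libraries. The part of these shifts in the let-7 values was not tested.

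let-7f-5p was the most abundant member in every library. Its level was 31767, 25190.2, 33462 and 21329.6 normalised CPM (CPM after TMM scaling, which divides each count by its library's total and a factor that brings most miRNAs to a common level) in Chow 1 to Chow 4. In HFD 1 to HFD 3 it was 67328, 65484 and 75029 normalised CPM. Every HFD library lay above every Chow library, and let-7f-5p ranked between 5 and 7 among all entries in Chow and between 3 and 4 in HFD. Its mean rose from 27937 ± 5669 (SD, n = 4) to 69280.2 ± 5063 (SD, n = 3), a 2.48-fold change in the fit (log2 fold change 1.31, SE 0.28, edgeR quasi-likelihood test with Benjamini-Hochberg adjustment over 385 miRNAs, adjusted p = 0.0328). It was the only member to pass the threshold of 0.05. The call was lost without any 1 of Chow 2, Chow 4 or the 3 HFD libraries (edgeR adjusted p between 0.0602 and 0.162, log2 fold change between 1.19 and 1.42). It was also lost without Chow 2 and Chow 3 together (log2 fold change 1.38, edgeR adjusted p = 0.0628). In bulk vesicle RNA, a change in the number of vesicles of a cell type and a change in the RNA per vesicle cannot be told apart.

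**Figure D1:**
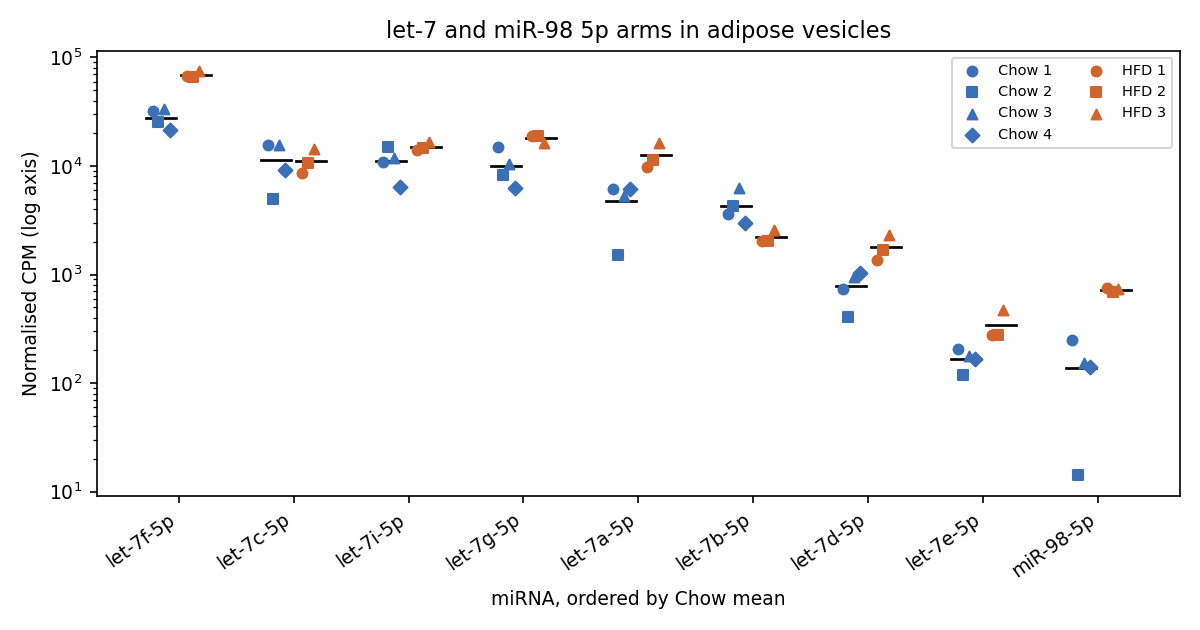
Normalised CPM (log axis) of the 9 members in each of the 4 Chow (blue) and 3 HFD (orange) libraries, with a black line at each group mean. All HFD values of let-7f-5p lie above the Chow values, those of let-7b-5p lie below them, and Chow 2 has the lowest miR-98-5p value, at 14.1.

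miR-98-5p is transcribed with let-7f-2 and is a let-7 member in all but name. Its counts were 373, 3, 7 and 295 in Chow 1 to Chow 4 and 1619, 1477 and 4759 in HFD 1 to HFD 3. These counts correspond to 248, 14.1, 154 and 141 normalised CPM in Chow and 756, 688 and 736 in HFD, with no overlap between the diets. The means were 139 ± 95.9 (SD, n = 4) and 727 ± 35.1 (SD, n = 3). The log2 fold change of 2.37 (SE 0.65) was the largest of the 9, but it did not pass (edgeR adjusted p = 0.0642). Its 3 counts in Chow 2 equal the number that a count of 0 allows in that library (16.6 CPM), and they have an exact Poisson 95% interval of 0.619 to 8.77 counts, which covers counting error only. Without Chow 2 the log2 fold change was 1.98, and without Chow 2 and Chow 3 it was 1.90 (edgeR adjusted p = 0.0626 and 0.0628).

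let-7a-5p, the member from which the others are usually described, and let-7d-5p share a cluster with let-7f-1. let-7a-5p stood at 6078, 1499, 5287 and 6168 normalised CPM in Chow and at 9861, 11348 and 16359.9 in HFD. Every HFD value exceeded every Chow value, and the lowest was that of Chow 2. Its log2 fold change of 1.40 (SE 0.46) did not pass (edgeR adjusted p = 0.0944). let-7d-5p stood at 739, 404, 947 and 1033 normalised CPM in Chow and at 1353.5, 1666 and 2317 in HFD, again with no overlap and with the lowest value in Chow 2. The log2 fold change of 1.19 (SE 0.43) did not pass (edgeR adjusted p = 0.122).

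let-7e-5p, which is made with miR-99b and miR-125a, was scarce. It stood at 207, 118, 176 and 165 normalised CPM in Chow and at 278, 279.9 and 473 in HFD, where HFD 3 was the highest and the diets did not overlap. The log2 fold change of 1.04 (SE 0.43) did not pass either (edgeR adjusted p = 0.172). let-7e-5p had 25 counts in Chow 2 and 8 in Chow 3, and without both libraries its log2 fold change was 0.88 (edgeR adjusted p = 0.248). let-7g-5p, from the Wdr82 intron, stood at 14851, 8245, 10419.9 and 6247 normalised CPM in Chow and at 18998, 18938 and 16274 in HFD, without overlap. With a log2 fold change of 0.86 (SE 0.35) it missed the threshold (edgeR adjusted p = 0.163).

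let-7i-5p, let-7c-5p and let-7b-5p had the smallest or negative fold changes. let-7i-5p stood at 10845, 14915, 11918 and 6336 normalised CPM in Chow and at 14024.5, 14621 and 16518 in HFD. Its diets overlapped through Chow 2, and the fit gave 0.45 on the log2 scale (SE 0.34, edgeR adjusted p = 0.467). let-7c-5p stood at 15504, 4945, 15663 and 9264 normalised CPM in Chow and at 8701, 10612 and 14208 in HFD. Its Chow libraries spanned its HFD range, and the fit gave -0.02 on the log2 scale (SE 0.42, edgeR adjusted p = 0.979), a sign that turned positive under library size scaling (0.32) and RLE scaling (0.03). let-7b-5p stood at 3632, 4292, 6300.4 and 2990.3 normalised CPM in Chow and at 2055, 2041 and 2562 in HFD, so that all HFD values lay below all Chow values. Its means were 4304 ± 1433 (SD, n = 4) and 2219 ± 297 (SD, n = 3), and its log2 fold change of -0.95 (SE 0.38) did not pass (edgeR adjusted p = 0.156). let-7b-5p and let-7c-5p are also the members that carry A19G.

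**Figure D2:**
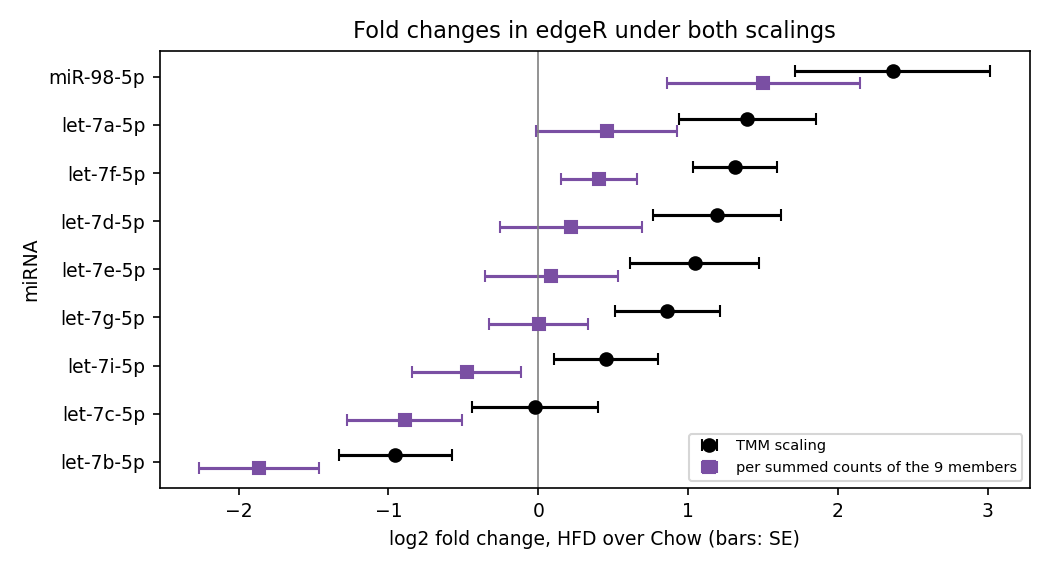
log2 fold change of HFD over Chow from edgeR with its SE for each member, with TMM scaling (black circles) and with each library scaled to the summed counts of the 9 members (purple squares). let-7f-5p (1.31) passed with TMM scaling and let-7b-5p (-1.86) passed per summed members, and the other points did not pass.

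Across the 9 members, 1 rose and none fell in edgeR, against 2.08% of the 385 tested miRNAs higher and 0.779% lower. At an unadjusted p under 0.05 edgeR gave 93 of the 385 miRNAs. Among them were let-7f-5p, miR-98-5p, let-7a-5p, let-7d-5p, let-7g-5p and let-7e-5p (higher) and let-7b-5p (lower). let-7i-5p and let-7c-5p were not. The members' median log2 fold change was 1.04 and that of all tested miRNAs was -0.02. In normalised CPM the diets did not overlap for 7 members, 6 higher and 1 lower (let-7b-5p) in HFD, where 13.0% of tested miRNAs were higher without overlap and 9.35% were lower. With DESeq2, let-7f-5p, miR-98-5p and let-7a-5p passed (DESeq2 adjusted p = 0.0167, 0.0037 and 0.0498), in a background of 8.05% higher and 4.16% lower.

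The order of the levels differed between the diets. In Chow the means fell from let-7f-5p through let-7c-5p, let-7i-5p, let-7g-5p, let-7a-5p, let-7b-5p and let-7d-5p to let-7e-5p and miR-98-5p. In HFD the order was let-7f-5p, let-7g-5p, let-7i-5p, let-7a-5p, let-7c-5p, let-7b-5p, let-7d-5p, miR-98-5p and let-7e-5p. Between neighbours in the Chow order, the ranges overlapped for let-7c-5p with let-7i-5p, let-7i-5p with let-7g-5p, let-7a-5p with let-7b-5p and let-7e-5p with miR-98-5p. Between neighbours in the HFD order, they overlapped between let-7g-5p and let-7i-5p, between let-7i-5p and let-7a-5p, between let-7a-5p and let-7c-5p, and between let-7b-5p and let-7d-5p. Adapter ligation in small RNA libraries is known to favour some sequences, and its part in the order was not tested.

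The summed members held more of the counts in HFD, and the size of the difference depended on miR-148a-3p. Of all miRNA counts the members held 5.96%, 7.02%, 7.84% and 4.90% in Chow 1 to Chow 4 and 13.4%, 14.8% and 15.7% in HFD 1 to HFD 3, a ratio of means of 2.28. With miR-148a-3p removed they held 13.9%, 12.5%, 18.7% and 8.13% in Chow and 18.2%, 19.4% and 19.9% in HFD. The diets then overlapped, because Chow 3 (exact Clopper-Pearson 95% interval 18.1% to 19.2% on 3828 counts) lay above HFD 1. The means were 13.3% ± 4.34 (SD, n = 4) and 19.2% ± 0.863 (SD, n = 3), with a ratio of 1.44. Without Chow 2 and Chow 3 the Chow mean was 11.0% ± 4.10 (SD, n = 2). No test was made of these sums.

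**Figure D3:**
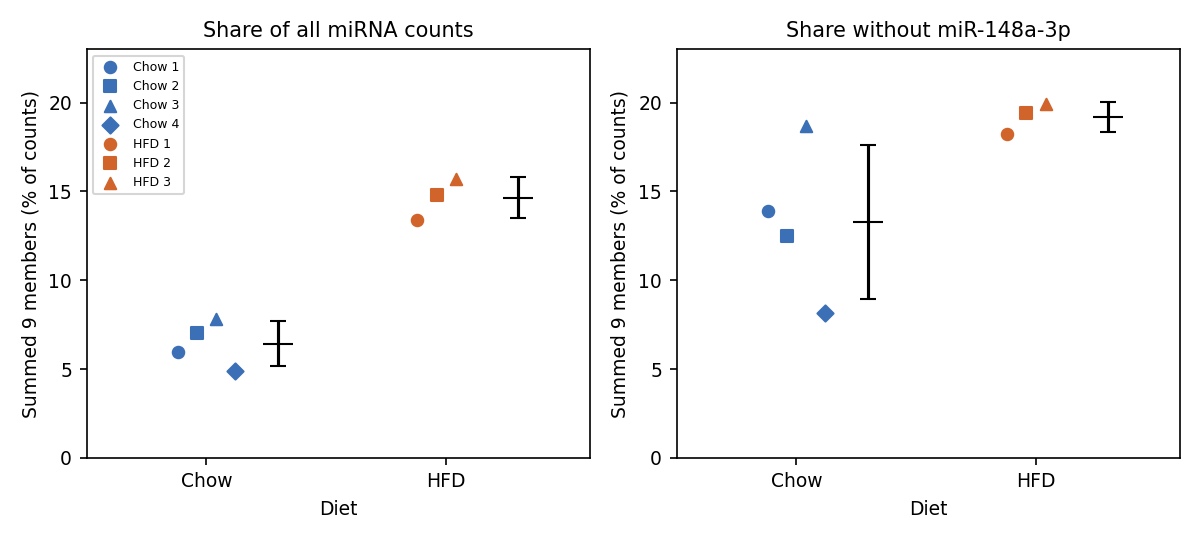
Summed counts of the 9 members as a percentage of all miRNA counts (left) and of counts without miR-148a-3p (right), by library, with mean and SD (black) for 4 Chow and 3 HFD libraries. The diets separate on the left and overlap on the right, where Chow 3 stands at 18.7% and HFD 1 at 18.2%.

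Single members differed in how their share of the counts without miR-148a-3p compared between the diets. let-7f-5p held 5.27%, 5.27%, 7.40% and 3.23% of the counts without miR-148a-3p in Chow and 9.95%, 10.1% and 10.3% in HFD, with no overlap and a ratio of means of 1.91. miR-98-5p had a ratio of 4.28, let-7a-5p of 2.13 and let-7e-5p of 1.62, each without overlap. let-7b-5p held 0.603%, 0.898%, 1.39% and 0.453% in Chow and 0.304%, 0.315% and 0.353% in HFD, lower without overlap. let-7d-5p, let-7g-5p, let-7i-5p and let-7c-5p overlapped, with ratios of 1.81, 1.43, 1.03 and 0.768. Thus 4 members were higher and 1 lower without overlap, against 7.03% and 15.9% of 384 tested miRNAs. Of all counts, 6 members were higher and none lower without overlap, against 21.3% and 3.38%.

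Tested on the same scale, no member passed. With miR-148a-3p removed and library size as the only scaling, edgeR called 1.02% of 391 miRNAs higher and 0.767% lower, and 0 of the 9 members. The smallest adjusted p-values were those of miR-98-5p, at 2.11 on the log2 scale (edgeR adjusted p = 0.0913), with -1.37 for let-7b-5p (edgeR adjusted p = 0.0926) and 0.93 for let-7f-5p (edgeR adjusted p = 0.0947). With miR-148a-3p removed and TMM kept, let-7f-5p passed alone (log2 fold change 1.39, edgeR adjusted p = 0.0246), with 2.05% of miRNAs called higher and 0.256% lower. With library size scaling and miR-148a-3p kept, 5 members rose (let-7f-5p, miR-98-5p, let-7a-5p, let-7g-5p and let-7d-5p), where 9.35% of miRNAs were called higher and 0.779% lower. That scaling moved the median log2 fold change of all tested miRNAs to 0.31 and that of the members to 1.35, while removal of miR-148a-3p with library size scaling moved them to -0.25 and 0.72. Without Chow 2 and Chow 3, edgeR called 0% of 403 miRNAs in either direction, with 95 at an unadjusted p under 0.05.

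The make-up of the family differed between the diets, as seen in each member's percentage of the summed member counts. let-7f-5p held 37.9%, 42.3%, 39.7% and 39.7% of the family in Chow and 54.6%, 52.1% and 51.9% in HFD. let-7b-5p held 4.33%, 7.20%, 7.47% and 5.57% in Chow and 1.67%, 1.62% and 1.77% in HFD. Neither overlapped between the diets. let-7c-5p held 18.5%, 8.29%, 18.6% and 17.3% in Chow and 7.05%, 8.44% and 9.83% in HFD, where Chow 2 lay within the HFD range. let-7i-5p was lower without overlap, at 11.8% to 25.0% in Chow and 11.4% to 11.6% in HFD, and miR-98-5p was higher, at 0.0237% to 0.295% and 0.509% to 0.613%. let-7a-5p, let-7d-5p, let-7e-5p and let-7g-5p overlapped, with ratios of means between 1.00 and 1.37.

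**Figure D4:**
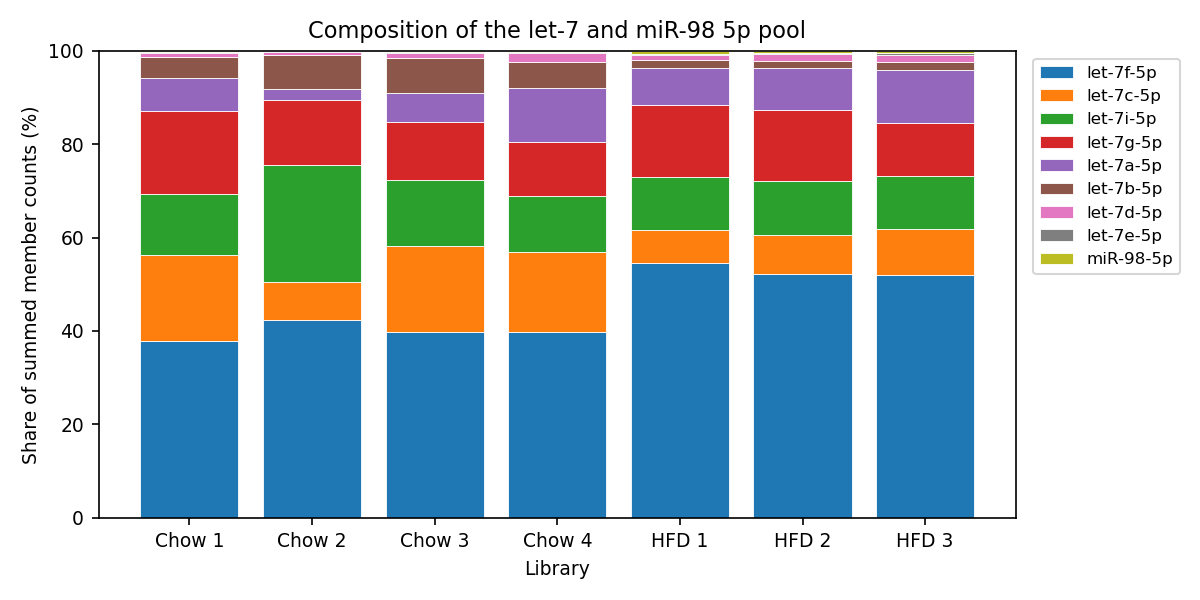
Percentage of the summed member counts held by each of the 9 members in each library, stacked. let-7f-5p takes 37.9% to 42.3% in the Chow libraries and 51.9% to 54.6% in the HFD libraries, while let-7b-5p and, outside Chow 2, let-7c-5p take larger parts in Chow.

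To test the make-up, edgeR was run on all miRNAs with each library scaled to its summed member counts. let-7b-5p fell relative to its family (log2 fold change -1.86, SE 0.40, edgeR adjusted p = 0.0213 over 345 miRNAs). It was the 1 member of 9 called lower, and none was called higher. On this scale edgeR called 22.6% of miRNAs lower and 0.870% higher, but the scaling itself centres the members near 0, so these shares are not read against the members. The adjustment ran over all 345 miRNAs, of which 140 had an unadjusted p under 0.05. The adjusted p-values of the members therefore depend on non-members too. For let-7b-5p the unadjusted edgeR p was 0.00061. The call for let-7b-5p held without Chow 2 and Chow 3 (log2 fold change -1.55, edgeR adjusted p = 0.0215), where let-7c-5p also passed (-1.08, edgeR adjusted p = 0.0335). It was lost without any 1 of the HFD libraries (edgeR adjusted p between 0.0937 and 0.128, log2 fold change between -1.90 and -1.84). It was also lost when let-7f-5p was taken out of the total (-1.52, edgeR adjusted p = 0.0603). let-7c-5p had -0.89 (edgeR adjusted p = 0.104), miR-98-5p 1.50 (edgeR adjusted p = 0.101) and let-7f-5p 0.41 (edgeR adjusted p = 0.225), and none of these passed. In per-family shares, 2 members were higher and 2 lower without overlap, and 2.86% and 27.8% of 385 tested miRNAs were. Because the scaling centres the members near 0, these percentages are not read against the members either.

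Ratios of counts between members within a library do not depend on scaling or on miR-148a-3p, and the pairs given here were chosen after their values were seen. There were 0.114, 0.170, 0.188 and 0.140 counts of let-7b-5p per count of let-7f-5p in Chow 1 to Chow 4 and 0.0305, 0.0312 and 0.0342 in HFD 1 to HFD 3. The ratio was thus lower in every HFD library, and its Chow mean was 4.80 times its HFD mean. let-7c-5p stood at 2.55, 3.30, 2.96 and 1.50 counts per count of let-7a-5p in Chow and at 0.882, 0.935 and 0.868 in HFD, so let-7c-5p exceeded let-7a-5p in every Chow library and fell short of it in every HFD library. This pair differs by A19G alone. How reads that fit both were assigned is not given, so the split of their counts is uncertain. let-7a-5p per let-7f-5p, a pair of members of the same chromosome 13 cluster, overlapped between the diets, at 0.0595 to 0.289 in Chow and 0.146 to 0.218 in HFD. miR-98-5p per let-7f-5p was 0.00056 to 0.00779 in Chow and 0.00981 to 0.0112 in HFD. miR-98-5p is made from the Huwe1 intron, and let-7f-5p from that intron and from chromosome 13. The counts of let-7a-5p and let-7f-5p cannot be split by locus.

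**Figure D5:**
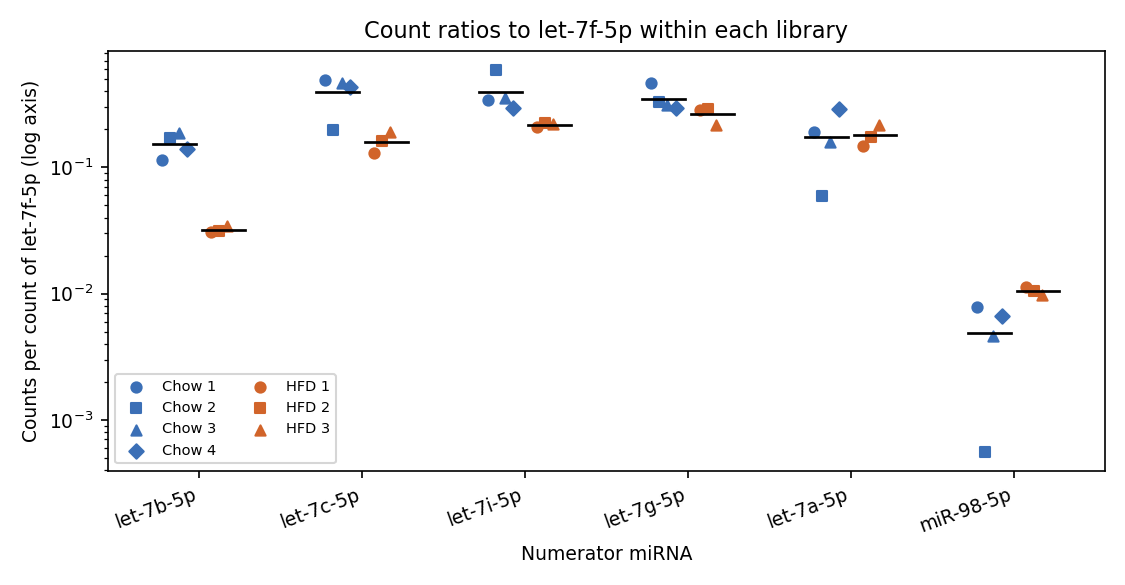
Counts of 6 members per count of let-7f-5p (log axis) in each Chow (blue) and HFD (orange) library, with a black line at each group mean. let-7b-5p stands at 0.114 to 0.188 in Chow and at 0.0305 to 0.0342 in HFD, while let-7a-5p overlaps between the diets.

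Across the 7 libraries, which differ in depth and diet, log2 levels correlated positively in 28 of the 36 pairs of members. let-7a-5p followed miR-98-5p (Pearson r = 0.973) and let-7d-5p (r = 0.967). Each of these members had its lowest level in the shallow Chow 2, where miR-98-5p had 3 counts. The correlations between members were not computed without that library. let-7b-5p correlated negatively with 7 of the 8 other members, and the lowest value was -0.667, with miR-98-5p. These values describe the libraries and carry no test.

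The passenger (3p) arms are the strands of the same hairpins that are usually discarded. Of 12 listed arms, 11 had an entry and 8 were tested, of which none rose or fell in edgeR, against the same background of 2.08% and 0.779%. Their median log2 fold change was 0.08, compared with 1.04 for the 5p members. Apart from let-7a-1-3p and let-7d-3p, every tested arm had 0 counts in Chow 3, where 0 allows up to 61.4 CPM. Those arms averaged under 61.4 normalised CPM in both diets, so the medians do not compare the strands at like depth. let-7d-3p made up between 59.1% and 90.4% of all passenger counts. let-7d-3p stood at 411, 1109, 286 and 1466 normalised CPM in Chow and at 805, 773 and 1002 in HFD, a log2 difference of 0.05 in the fit (SE 0.54, edgeR adjusted p = 0.971). It took 35.7%, 73.3%, 23.2% and 58.7% of the counts of both let-7d arms in Chow and 37.3%, 31.7% and 30.2% in HFD. let-7d-3p thus outnumbered its 5p partner in Chow 2 and Chow 4 and in no other library. let-7a-1-3p, whose RefSeq sequence is that of let-7c-2-3p and which cannot be told apart from it, had 182, 84.6, 176 and 331 normalised CPM in Chow and 278, 223 and 218 in HFD (log2 fold change 0.28, edgeR adjusted p = 0.806).

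The arms of miR-98 differed in their ratio between the diets. The arms in this paragraph were chosen after their values were seen. miR-98-5p outnumbered miR-98-3p by 6.66 times in Chow 1 and 7.20 times in Chow 4, and by 17.6, 27.9 and 34.5 times in HFD 1 to HFD 3. Chow 2 and Chow 3 held 2 and 0 counts of miR-98-3p and gave no usable ratio. miR-98-3p itself had 0.43 on the log2 scale and did not pass (edgeR adjusted p = 0.737). The difference between the arms was not tested. For let-7b the 5p arm outnumbered the 3p arm by 87.1 to 228 times in Chow 1, Chow 2 and Chow 4 and by 85.9 to 169 times in HFD, so the ranges overlapped. let-7g and let-7i were almost wholly 5p, with at most 0.0451% of counts from the 3p arm in any library.

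A pair of further mouse entries carries the let-7 name. let-7k has the family seed, and it had 1 count in all, in HFD 2. let-7j differs from the family at the last base of the seed. It had 2, 1, 0 and 7 counts in Chow and 30, 24 and 23 in HFD, and 1.83 on the log2 scale in the fit (edgeR adjusted p = 0.172).
let-7j: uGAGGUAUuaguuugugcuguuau
let-7k: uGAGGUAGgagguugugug

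The cluster partners are miRNAs of the miR-99, miR-100 and miR-125 families, cut from the same clusters as let-7a-2, let-7c-1 and let-7e. None of 9 tested partners passed in edgeR, against 2.08% of all miRNAs higher and 0.779% lower. Of the 9, 1 had a positive fold change, and their median log2 fold change was -0.68, beside -0.02 for all tested miRNAs. miR-99a-5p, the partner of let-7c-1, stood at 50851, 77126, 65030.4 and 77676 normalised CPM in Chow and at 68601, 46675 and 64816 in HFD (log2 fold change -0.17, edgeR adjusted p = 0.788). miR-100-5p, the partner of let-7a-2, stood at 5094, 7399, 3745 and 5051 in Chow and at 2419, 2318 and 2933 in HFD, lower without overlap (log2 fold change -1.06, edgeR adjusted p = 0.113). Next to let-7e, miR-99b-5p had a log2 fold change of -0.26, miR-99b-3p of -1.11 and miR-125a-5p of -0.20 (edgeR adjusted p = 0.808, 0.236 and 0.866). miR-125b-5p had 0.09 and miR-125b-2-3p had -0.68 (edgeR adjusted p = 0.911 and 0.448). Relative to the summed members, 6 of the 9 partners were called lower and none higher, where 22.6% of all miRNAs were called lower. The median log2 fold change of all tested miRNAs on this scale was -1.04. A call here is therefore relative to the members and is not read as a fall of the partner itself. The partners called lower included miR-100-5p (log2 fold change -2.06, edgeR adjusted p = 0.0213) and miR-99a-5p (-1.17, edgeR adjusted p = 0.0379), with miR-99b-3p and miR-125b-2-3p (edgeR adjusted p = 0.0363 and 0.0389). The other two, miR-125b-1-3p and miR-125a-3p, averaged under 100 normalised CPM.

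Among 151 other miRNAs with a mean of at least 100 normalised CPM, those whose level over the 7 libraries was most like that of the summed members were miR-7a-5p, miR-103-3p, miR-146b-5p, miR-16-5p and miR-21a-5p. Pearson r of log2 levels was 0.891, 0.878, 0.863, 0.838 and 0.808. Without Chow 2 and Chow 3, 2 of these remained among the 5 highest. miR-7a-5p stood at 1378, 489, 617 and 633 normalised CPM in Chow and at 2402, 2997 and 2081 in HFD (log2 fold change 1.67, edgeR adjusted p = 0.0642).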

How the data were processed

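Small RNA from adipose vesicles was sequenced in 4 Chow and 3 HFD libraries. The authors deposited whole-number read counts for each mature miRNA, per the file headers, with no normalization. The submitters' processing notes name Bowtie, and for its version, the counting program, the annotation release and any filters no source used here gives details. The series' combined table was used, and 0 of its member values differed from the separate tables. Tests used R 4.3.3 and edgeR 4.0.16 (quasi-likelihood, filterByExpr, TMM, diet as the only term, Benjamini-Hochberg over all tested miRNAs, threshold 0.05), with SE derived from the F statistic. A further fit set the library size to the summed member counts. Alternatives used DESeq2 1.42.0 and limma 3.58.1. Both fits were tested on simulated data. All members were named, arms and partners where they averaged at least 100 normalised CPM, and the 5 most similar miRNAs, by correlation of log2(normalised CPM + 1). Replicates of a diet differed by far more than counting noise. Intervals cover counting error only, because reads carry no molecular identifiers. The members, lists and tests were chosen with earlier results of these data known. Sequences and coordinates are from RefSeq GRCm38.p6.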

Additional observations from a re-analysis of the deposited data

Results flagged for a closer look

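Of 62 sets of 4 Chow values examined, 3 held a library far from the others, and chance flags about 1 in 20 sets. let-7c-5p held 8.29% of the summed member counts in Chow 2, against 17.3% to 18.6% in the other Chow libraries. miR-125a-5p, a cluster partner of let-7e, stood at 3471 normalised CPM in Chow 4, against 749 to 991 in the others. miR-7a-5p stood at 1378 normalised CPM in Chow 1, against 489 to 633 in the others. Groups of 3 HFD libraries are too small for this check.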

How the results depend on the processing

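Calls were few and depended on the settings. In edgeR, 11 of 385 miRNAs passed, 1 of them a member. With library size scaling 39 of 385 passed (5 members), and with RLE scaling 18 of 385 (1 member). Without a low-count filter 62 of 1042 passed (4 members). In DESeq2 47 of 385 passed (3 members), and in limma-voom 16 of 385 (2 members). Without miR-148a-3p and with library size scaling 7 of 391 passed (0 members). Without Chow 2 and Chow 3, 0 of 403 passed (0 members, 95 miRNAs at an unadjusted p under 0.05). With a library left out in turn, between 0 and 32 miRNAs and between 0 and 2 members passed, of 376 to 409 tested. let-7f-5p kept its call in 11 of 19 alternatives and its direction in all 19. Among the 19 is a fit on the separately deposited counts, which hold the same values, so its agreement was fixed in advance. let-7b-5p stayed negative in all 19 (log2 fold change -1.37 to -0.58), and miR-98-5p, let-7a-5p, let-7d-5p, let-7e-5p, let-7g-5p and let-7i-5p stayed positive. let-7c-5p reversed in 11, to 0.32 with library size scaling, 0.0301 with RLE scaling, 0.30 without a filter, 0.0303 in DESeq2, 0.12 in limma-voom, 0.0674 without miR-148a-3p, 0.0352 with the replicate block and up to 0.21 (from -0.28) with a library left out. The cause was not tested.

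Relative to the summed members, 81 of 345 miRNAs and 1 member passed. With let-7f-5p taken out of the total, 12 of 365 and 0 members passed, and with the replicate block 30 of 345 and 1 member. Without Chow 2 and Chow 3, 104 of 434 and 2 members passed. With a library left out, 2 to 96 miRNAs of 362 to 372 tested and 0 to 1 members passed. In the main fit let-7g-5p had 0.0027 (SE 0.33), let-7e-5p 0.0877 (SE 0.44) and let-7d-5p 0.22 (SE 0.47), all smaller than their SE. let-7g-5p reversed to -0.0422 in limma-voom, -0.0769 without Chow 2 and Chow 3 and -0.0704 with the replicate block. It lay between -0.0766 and 0.14 with a library left out. let-7e-5p reversed to -0.10 and let-7d-5p to -0.0637 without Chow 2 and Chow 3, and let-7e-5p lay between -0.12 and 0.24 with a library left out. The mean family share, 13.3% in Chow and 19.2% in HFD without miR-148a-3p, was 6.43% and 14.6% of all counts and 16.2% and 25.9% without the 3 most abundant other miRNAs. With a library left out the Chow mean lay between 11.5% and 15.0% and the HFD mean between 18.8% and 19.7%. Of the 5 most similar miRNAs, 2 remained without Chow 2 and Chow 3.

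Replicate numbers are shared between the diets, but libraries of the same number did not vary together (correlations of deviations of 0.07, -0.16 and 0.03). With the replicate block 23 miRNAs passed, 2 of them members, namely let-7a-5p and miR-98-5p (edgeR adjusted p = 0.0404 and 0.0283), while let-7f-5p did not (0.0885). A count of 0 allows up to 16.6 CPM in Chow 2 and 61.4 CPM in Chow 3, which bears on the 3p arms.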
